A study of Homo sapiens with 16 samples.

Results

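Among 28846 regions obtained by merging the H3K4me3 peaks of 6 CUT&RUN libraries of MCF-10A cells (3 vehicle and 3 OA), 11071 (38.4%) carried a peak in all 6 libraries. Of these constitutive regions, 467 lay more than 10 kb from every start site of a protein-coding or lncRNA transcript in GENCODE release 44, and these 467 distal constitutive regions are described here. The other 10604 constitutive regions were within 10 kb of a start site (proximal constitutive regions), and 7141 further distal regions were called in 1 to 5 of the 6 libraries. The members were chosen by the peak calls of these 6 libraries, so the calls, lengths and strengths there are given as descriptions, without a test.

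MCF-10A is a nontransformed human breast epithelial cell line. The vehicle (PBS) and OA (octanoic acid, 5 mM) cultures were exposed for 24 hours, with 3 libraries per treatment for each of H3K4me3 and H3K27me3. Untreated cells gave 2 H3K4me3 and 2 IgG libraries, in which IgG is a nonspecific antibody that measures background cutting. CUT&RUN tethers a micrococcal nuclease to antibody-bound chromatin and sequences the fragments it releases, and peaks had been called by the authors library by library. The study's methods describe the vehicle and OA cultures as biological triplicates, and the sources used here do not say it of the untreated libraries.

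H3K4me3, trimethylation of lysine 4 on histone H3, marks the nucleosomes beside active and CpG-rich start sites, and is usually sparse at enhancers, which carry more monomethylation of the same residue. RNA polymerase III genes such as tRNA and 5S rRNA genes can carry it as well, although a catalogue of protein-coding and lncRNA starts does not contain them. H3K27me3 is the mark of Polycomb repression. Satellite DNA, the tandem repeats in and beside centromeres, is hard to place with short reads, because many copies share the same sequence.

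The 467 regions were not uniform. An IgG peak overlapped 229 of them (49.0%, exact 95% interval 44.4% to 53.7%), compared with 1.36% of the proximal constitutive regions, 10.5% of the distal regions called in 1 to 5 libraries and 3.37% of all regions called in all 6. The 229 regions were mostly satellite-like and repeated in the genome, and the other 238 were rich in G + C and CpG. A tRNA gene was within 500 bp of 42 of the 238 regions and of 0 of the 229. These 2 sets were separated after the data were seen and are described side by side below. All intervals on shares cover counting error only, and neighbouring regions are not independent of each other.

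The following sequences are from hg38. The first 3 are tRNA genes, 1 for each of the 3 highest-ranked regions of the tRNA class, read 5′ to 3′ on the strand that holds the B box, and the capitals mark the B box (GTTCNANNC), the internal promoter element that TFIIIC binds, at the last match in the gene. TRL-CAA4-1 (chr1:248873855-248873960, plus strand) lies in a region near ZNF692, TRL-CAA6-1 (chr1:161611946-161612029, minus strand) lies in a region near FCGR2C, and TRN-GTT24-1 (chr1:146370101-146370174, plus strand) in a region near PPIAL4H.
TRL-CAA4-1: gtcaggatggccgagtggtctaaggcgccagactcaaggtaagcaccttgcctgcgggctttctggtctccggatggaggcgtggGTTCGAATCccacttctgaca
TRL-CAA6-1: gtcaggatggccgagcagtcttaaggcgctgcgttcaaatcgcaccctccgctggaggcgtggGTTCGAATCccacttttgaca
TRN-GTT24-1: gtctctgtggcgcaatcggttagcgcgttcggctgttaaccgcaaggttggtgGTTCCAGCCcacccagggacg

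The next pair shows the sequence under the IgG-overlapped regions, in 200 bases centred on the strongest summit, plus strand. The highest-ranked region of all, nearest to the distant gene SRGAP2C, is shown at chr1:125180086-125180285 with every GGAAT pentamer, on either strand, in capitals. The region near WSB1 at chr17:26619932-26620131 was the highest-ranked region with a CENP-B box in these 200 bases, the binding element of a centromere protein in alpha satellite DNA, and the capitals mark it.
SRGAP2C region: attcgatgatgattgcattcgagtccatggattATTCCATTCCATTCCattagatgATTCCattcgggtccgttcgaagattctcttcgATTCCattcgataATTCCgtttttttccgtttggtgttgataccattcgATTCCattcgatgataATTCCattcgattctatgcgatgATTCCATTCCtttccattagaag
WSB1 region: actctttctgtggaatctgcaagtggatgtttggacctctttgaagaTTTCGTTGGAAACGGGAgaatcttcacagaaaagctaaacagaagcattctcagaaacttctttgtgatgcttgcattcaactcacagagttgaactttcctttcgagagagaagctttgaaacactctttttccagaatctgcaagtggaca

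The last pair shows regions without an IgG peak and with no annotated start within 1 kb, a class defined below, again on the plus strand. The strongest of them, between genes at chr1:199640-199839 with OR4F5 as the nearest protein-coding gene, holds 24 CpG dinucleotides in the 200 bases shown, and the capitals mark a GC box (GGGCGG, either strand) of the SP/KLF factors. The region inside RAI1 at chr17:17694365-17694564 was the highest-ranked with an AP-1 element (TGACTCA or its reverse complement, in capitals).
OR4F5 region: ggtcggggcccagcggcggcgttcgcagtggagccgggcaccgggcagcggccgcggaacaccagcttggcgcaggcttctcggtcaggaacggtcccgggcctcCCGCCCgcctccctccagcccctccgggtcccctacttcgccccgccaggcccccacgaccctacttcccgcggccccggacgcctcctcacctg
RAI1 region: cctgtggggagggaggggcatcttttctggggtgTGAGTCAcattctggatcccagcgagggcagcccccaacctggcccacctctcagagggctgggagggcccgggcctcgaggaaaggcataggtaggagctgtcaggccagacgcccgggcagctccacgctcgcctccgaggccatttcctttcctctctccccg

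The distal constitutive regions spanned a median of 901 bp (interquartile range 594 to 1260 bp), against 1559 bp for the proximal constitutive regions and 251 bp for the distal regions called in 1 to 5 libraries. Regions with an IgG peak were shorter (median 708 bp) than regions without (median 1020 bp). Strength was expressed as the percentile of a region's strongest peak, by −log10 p, among all peaks of its own library, and the median over the 6 libraries was used to rank the 11071 constitutive regions. The 467 regions had a median rank of 9504, in the weaker part of the ranking. Of the 467, 42 (8.99%) were among the strongest 1107 regions, which make up 10% of the ranking, and 201 (43.0%) among the weakest 1107. Of the 42, 40 had an IgG peak, and 23 of the 100 strongest constitutive regions were members, each with an IgG peak.

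The 10 highest-ranked members all had a peak in both IgG libraries, in both untreated H3K4me3 libraries and in all 6 H3K27me3 libraries. The first, at chr1:125178884-125180704 in the pericentromeric part of chromosome 1, had a percentile of 100 in each of the 6 libraries with folds of 7.45, 7.30 and 7.96 in vehicle against 7.82, 8.43 and 7.25 in OA. The nearest protein-coding start, that of SRGAP2C, was 3991782 bp away. Others of the 10 lay near CWH43 at chr4:49148808-49150051, near ZNF33B at chr10:41859282-41860394, near EMB at chr5:49666174-49667303, near WSB1 at chr17:26603659-26604444 and, for 4 of them, in 1 array nearest to H3-7 on chromosome 1. The remaining region was inside the lncRNA gene DANT2 on the X chromosome at chrX:115732333-115733006, where the percentiles were 99.9, 100 and 99.9 in vehicle, 99.8, 100 and 100 in OA, and 58.9 and 63.1 in the IgG libraries. Its IgG percentiles were thus lower than those of the CWH43 region (99.8 in both IgG libraries).

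The IgG-overlapped regions were clustered. Of the 467 members, 257 lay within 100 kb of another member, in 59 clusters, and all 3 clusters of at least 10 members consisted only of IgG-overlapped regions. The densest held 29 regions in 82.9 kb at chr1:143184632-143267541, followed by 16 regions in 64.1 kb at chr4:49091379-49155496 and 14 regions in 240 kb at chr1:124531305-124771186. Chromosome 1 held 83 of the 229 regions, chromosome 10 held 28, chromosome 4 held 27, chromosome 17 held 23 and chromosome Y held 12. Between genes lay 223 of the 229 (97.4%), at a median of 315 kb from the nearest start site.

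Their windows of 400 bp, centred on the strongest summit, had a median G + C content of 39.8% and held at least 10 GGAAT pentamers in 112 of 229 cases (48.9%), compared with 0 of the 238 members without an IgG peak, 0 of the proximal constitutive regions and 3.26% of the distal regions called in 1 to 5 libraries. A CENP-B box without such a pentamer array was present in a further 78 (34.1%), while 39 (17.0%) had neither. To measure repetition, a word of 32 bases was taken every 20 bases and its copies were counted on both strands of hg38. The count ran over every sequence of the genome copy used, without restriction to the autosomes, X and Y. A word counted as repeated may therefore have its other copies on contigs only, which was not checked. In 202 of 229 windows (88.2%) more than 50% of the words occurred more than once, against 41.2% of the members without an IgG peak, 6.06% of the proximal constitutive regions and 25.7% of the distal regions called in 1 to 5 libraries. The median number of copies was 3.50 in the pentamer windows and 1000 in the windows with a CENP-B box alone. The study's reads were paired and longer than 32 bases, and whether a read pair matches several positions was not tested. How reads with several possible positions were treated is not given in the sources used here.

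**Figure D1:**
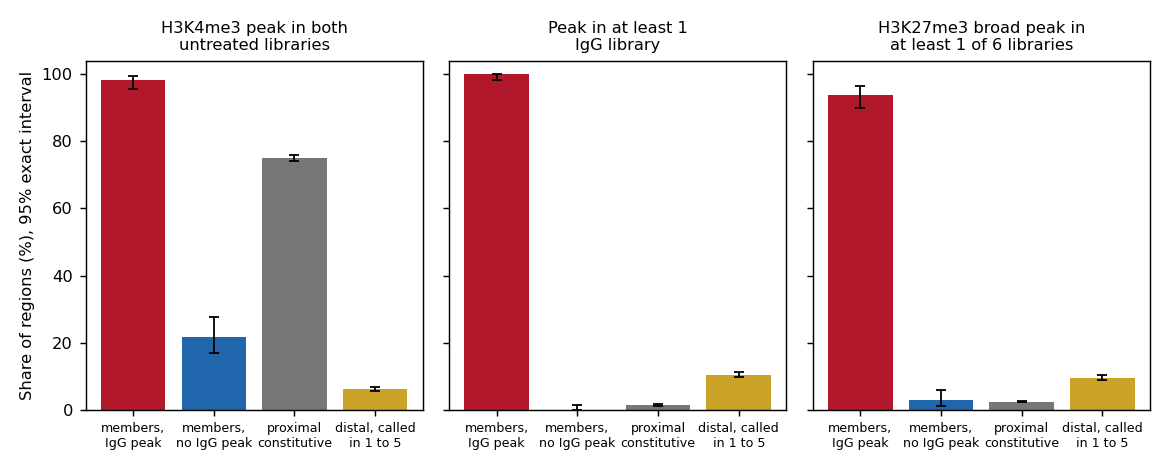
Share of regions (%, bars, with exact 95% intervals) with an H3K4me3 peak in both untreated libraries, a peak in at least 1 IgG library and an H3K27me3 broad peak in at least 1 of 6 libraries. Members with an IgG peak (n = 229) are at 98.3% and 93.9% in the outer panels, while members without (n = 238) are at 21.8% and 2.94%; the middle panel shows the split itself.

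The untreated H3K4me3 libraries were not used to choose the regions. Both had a peak at 277 of the 467 regions (59.3%, interval 54.7% to 63.8%), compared with 75% of the proximal constitutive regions, 6.19% of the distal regions called in 1 to 5 libraries and 74.3% of all constitutive regions. The 2 sets differed widely in this respect: both untreated libraries had a peak at 225 of the 229 IgG-overlapped regions (98.3%), but only at 52 of the 238 others (21.8%, interval 16.8% to 27.6%). Neither untreated library had a peak at 123 of the 238 (51.7%), against 9.85% of the proximal constitutive regions. The untreated lists were also shorter, with 12924 and 11242 peaks against 16086 to 21033 in the 6 vehicle and OA libraries.

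Among the 238 regions, the untreated calls followed strength. The 52 regions called in both untreated libraries had a median percentile of 61.3 in the vehicle and OA libraries, the 63 called in 1 had 47.1 and the 123 called in neither had 35.9, with none of the last above 54.8. The region called in neither with the highest percentile lay near ANKRD9 at chr14:102524598-102525514 and had percentiles of 59.1, 45.4 and 15.6 in vehicle and 50.5, 70.0 and 78.3 in OA. Within the untreated libraries themselves, the IgG-overlapped regions stood at a median percentile of 99 and 98.9 and the other members that were called at 28.5 and 29.5.

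The strength of the IgG-overlapped regions also differed between libraries of the same treatment. Their median percentile was 68.9, 36.8 and 87.4 in the vehicle replicates 1, 2 and 3, but 99, 39.3 and 40.1 in the OA replicates. The members without an IgG peak had medians of 44.6, 38.1 and 41.0 in vehicle against 34.8, 41.9 and 50.6 in OA. OA replicate 1 was thus the highest library for the first set and the lowest for the second, and vehicle replicates 1 and 3 were also above the other 3 libraries for the first set. Of the peaks called in the IgG libraries, 18.0% and 20.7% fell on members.

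**Figure D2:**
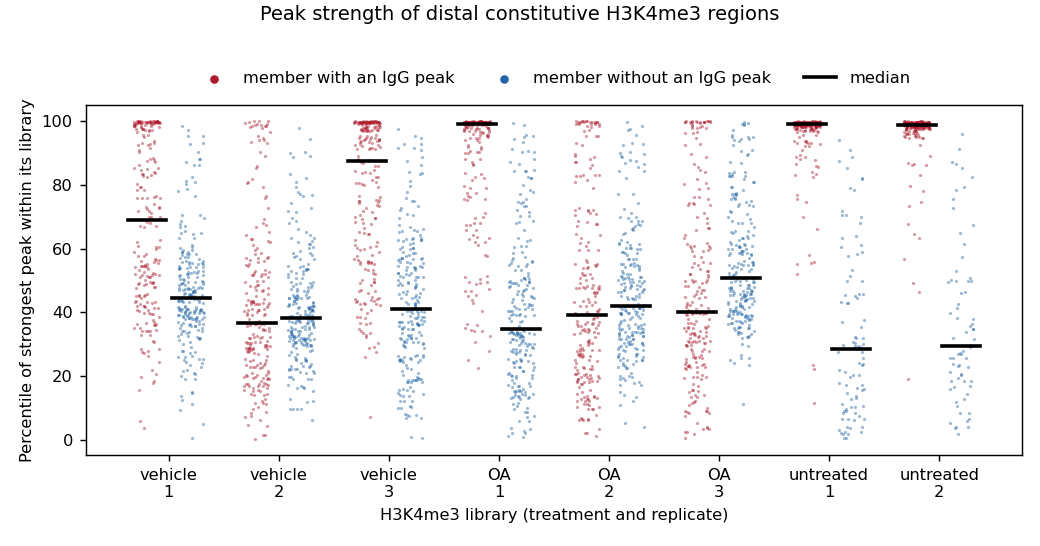
Percentile of the strongest peak of each member within its own H3K4me3 library (vertical axis), with points for regions and black lines for medians. Members with an IgG peak (red) sit near 99 in both untreated libraries and in OA replicate 1 and near 40 in OA replicates 2 and 3, whereas members without (blue) have medians between 28.5 and 50.6.

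The members without an IgG peak were nearer to the proximal constitutive regions in base composition than to the other distal regions. Their median G + C content was 60.5% (interquartile range 53.0% to 68.5%) and their median CpG observed/expected ratio 0.713, compared with 66.8% and 0.797 in the proximal constitutive regions and 48.0% and 0.258 in the distal regions called in 1 to 5 libraries without an IgG peak. The GC box GGGCGG was found on either strand in 135 of 238 windows (56.7%), against 71.5% and 15.1% in those classes. The ETS element CCGGAAG was found in 12.6%, against 15.6% and 2.61%. The AP-1 element showed the opposite order, with 12 of 238 windows (5.04%), 3.08% of proximal constitutive regions and 26.1% of the distal regions called in 1 to 5 libraries without an IgG peak. The 12 windows with an AP-1 element included those near CAV2, SMAD7, MRTFA and RAI1, named here after their values were seen.

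The RUNX element (TGTGGT) was found in 16.4% of the members without an IgG peak, 11.3% of the proximal constitutive regions and 24.1% of the distal regions called in 1 to 5 libraries without an IgG peak. The CTCF core (AGGGGGC) was found in 12.2%, 19.6% and 6.68%, TATAAA in 9.24%, 3.01% and 18.9%, and the TEAD element GGAATG in 17.2%, 13.2% and 26.5%. GGAATG overlaps the satellite pentamer and was present in 56.8% of the IgG-overlapped windows. The B box pattern GTTCNANNC was found in 67.2% of the IgG-overlapped windows, 13.0% of the members without an IgG peak and 21.4% of the tRNA class windows. It is thus not particular to tRNA genes. The NRF1 element TGCGCATG (2.52%, 1.97% and 0.438%) and the GRHL element AACCGGTT (2.1%, 0.151% and 0.172%) were rare in all 3 classes, the latter in 5 member windows. Most of these windows were on the short arm of chromosome 21, with 100% of their words repeated and a median of 7 copies. They may therefore not be independent, and repeated windows there also held RUNX elements.

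**Figure D3:**
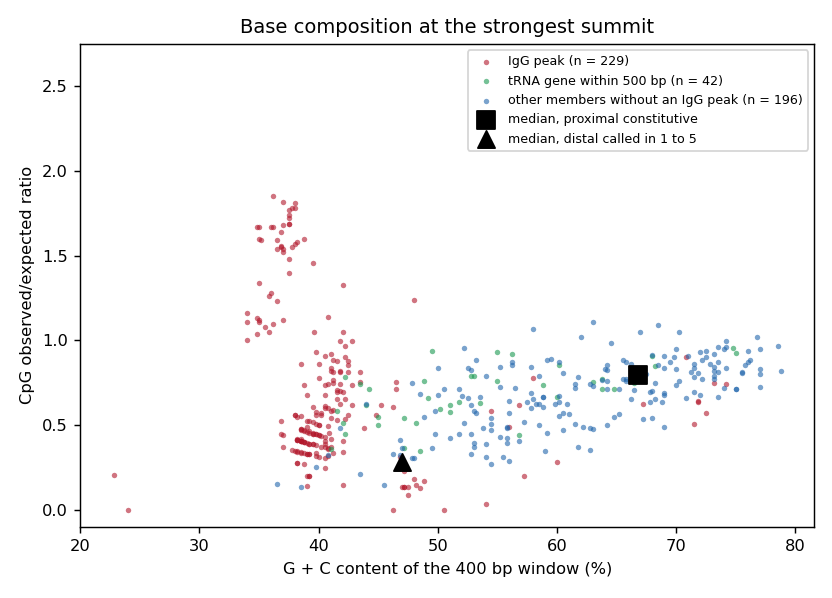
G + C content (%) and CpG observed/expected ratio of the 400 bp window at the strongest summit, with points for members and black symbols for the medians of the comparison classes. IgG-overlapped members (red) gather near a median G + C content of 39.8%, and members without an IgG peak (blue, green) spread from the median of the distal class toward that of the proximal constitutive regions.

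The 238 regions were divided further by what was annotated beside them. A tRNA gene of RefSeq lay within 500 bp of 42, the start of another small RNA within 1 kb of 10, a RefSeq protein-coding or lncRNA start that the GENCODE rule did not contain within 1 kb of 25, and a GENCODE pseudogene or unconfirmed (TEC) start within 1 kb of 15. The remaining 146 fell in none of these classes and are called regions with no annotated start within 1 kb. For this class, tRNA genes were searched only to 500 bp. GENCODE starts of immunoglobulin and T-cell receptor genes were not searched. Of the 238 regions, 167 (70.2%) were between genes, 49 (20.6%) were inside a protein-coding gene and 22 (9.24%) inside a lncRNA gene. The distance to the nearest start site in the rule had a median of 22.6 kb, and 105 regions were at 10 to 20 kb.

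The tRNA class covered 53 tRNA genes, and 25 of the 42 regions were on chromosome 6, most of them in its gene-dense interval of tRNA and histone genes. Chromosome 6 had 3 clusters with 6 tRNA regions each, in which neighbouring members were within 100 kb, the first at chr6:27096571-27333981 and the others at chr6:27494959-27631567 and chr6:28728670-28881517. A whole tRNA gene lay inside 34 of the 42 regions. The summit of the strongest peak was never inside the tRNA gene (0 of 42) but at a median of 342 bp from it (148 to 1204 bp). Looked at from the genes, 191 nuclear tRNA genes were more than 10 kb from a protein-coding or lncRNA start, and 53 of them (27.7%) had a constitutive H3K4me3 region within 500 bp, while 91 (47.6%) had no H3K4me3 peak in any of the 6 libraries. Of the 252 tRNA genes nearer to a start site, 132 (52.4%) had a constitutive region within the same distance.

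The strongest tRNA region held TRL-CAA4-1 near ZNF692 (chr1:248872752-248874314), with percentiles of 86.2, 89.1 and 91.7 in vehicle against 87.3, 98.6 and 93.7 in OA. The region holding TRL-CAA6-1, a leucine tRNA gene, near FCGR2C (chr1:161611581-161612809) had 86.4, 83.3 and 83.7 in vehicle against 93.4, 92.5 and 97.2 in OA. Both had a peak in each untreated library and in neither IgG library. Across the class the median percentile over the 6 libraries was 46.4 (25.7 to 90.4), both untreated libraries had a peak at 5 of the 42 regions (11.9%), and an H3K27me3 broad peak was called at 0. The longest region without an IgG peak, of 3390 bp at chr1:161454613-161458002, held 5 tRNA genes.

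The small RNA class contained 6 regions of the 5S rRNA array, at chr1:228556416-228648604, 3 regions beside RNVU1 (variant U1 snRNA) genes and 1 region beside a gene named U2 inside CCDC200 on chromosome 17. The region at the end of the 5S array, beside RNA5SP18, was the strongest of the class, with percentiles of 80.2, 82.2 and 56.7 in vehicle and 94.3, 99.9 and 95 in OA. In its window no sampled word was repeated in hg38. In the windows of the other 5 regions of the array 84.2% to 100% of the words were repeated, with a median of 17 to 18 copies. Whether read pairs, which are longer than a word, tell single 5S units apart was not tested. The pseudogene class included regions beside ZNRF2P1 (median percentile 90), DUXAP10 (88.9) and NUDT4P2 (79.9), and its windows held a GC box in 14 of 15 cases.

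Among the 146 regions with no annotated start within 1 kb, 34 (23.3%) had a peak in both untreated libraries and 2 had an H3K27me3 broad peak. The strongest, between genes at chr1:198972-200351, had percentiles of 98.6, 97.9 and 95.4 in vehicle and 98.7, 93.3 and 99.5 in OA, and 90.9 and 91.4 in the untreated libraries. A region nearest to FOXD4L4 (chr9:66269366-66271323) followed with a median percentile of 94.0, and a region nearest to GOLGA6L4 (chr15:84343823-84345078) with 91.3. In these 3 windows 100%, 94.7% and 100% of the words occurred more than once in hg38, with a median of 7, 7 and 9 copies. Whether read pairs tell these copies apart was not tested, so the copy that carried the mark may be uncertain. In 54 of the 146 windows (37.0%) more than 50% of the words were repeated. On the short arm of chromosome 21, between 5127732 and 8153942, 19 members without an IgG peak were called, with median percentiles of 30.0 to 72.5.

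Among the unique windows of this class were a region near ACBD3 (chr1:226121661-226122897), where no sampled word was repeated and the CpG observed/expected ratio was 0.951, and a region near PTPN18 (chr2:130391214-130391881) with a ratio of 0.770. The weakest member without an IgG peak was inside NFIA, a transcription factor gene, at chr1:61338100-61338741. Its percentiles were 5.01, 9.55 and 7.70 in vehicle and 13.5, 14.0 and 35.3 in OA, with no peak in either untreated library.

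Of the gene lists examined, only the AP-1 and YAP target list contained the nearest gene of a member, with 1 member 40822 bp from a start of YAP1, the transcriptional coactivator of the Hippo pathway. That region (chr11:102267795-102269052) had percentiles of 34.5, 32.1 and 42.8 in vehicle and 40.3, 40.3 and 53.0 in OA, and was overlapped by a peak of 1 IgG library at percentile 2.27. No member was nearest to the 27 basal and mammary epithelial genes, the 5 growth control genes, the 7 serine and stress genes or the 8 neural genes. The same counts were not made over all constitutive regions. With so few listed genes, these counts do not show that members avoid or favour any list. As a check of the cell type, 7 of 12 markers of a basal-like breast epithelial line had a constitutive H3K4me3 region over a start site, as did 2 of 4 luminal markers and 0 of 8 markers of blood, endothelial, liver, muscle and neural cells. KRT14, TP63, CDH1, LAMB3 and EPCAM were the basal-like markers without a call in all 6 libraries. Of them, 3 were called in 1 to 5 libraries, as was 1 luminal marker. These counts do not tell basal-like from luminal cells.

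At the 10 kb limit itself, the 3 members just inside lay 10069, 10077 and 10180 bp from a start of H2AC12, ACSM6 and CCN6, with median percentiles of 50.2, 34.2 and 48.3. The 3 constitutive regions just outside lay 10000, 9880 and 9778 bp from a start of BCOR, DNAJA1 and LINC02861, with median percentiles of 23.7, 37.3 and 44.7. None of the 6 regions had an IgG or an untreated H3K4me3 peak.

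H3K27me3 broad peaks overlapped many of the distal constitutive regions. The share of the 467 regions was 37.5%, 20.6% and 18.8% in the vehicle replicates 1, 2 and 3 and reached 45.4%, 18.2% and 17.8% in the OA replicates. Over the 6 libraries this was 26.4% ± 12 (SD, n = 6), compared with 0.624% ± 0.520 of the proximal constitutive regions, a difference of 25.8 percentage points in the same direction in 6 of 6 libraries (two-sided exact paired permutation test over 64 sign patterns, p = 0.0312, adjusted p = 0.0781 over the 5 tests made). Against the distal regions called in 1 to 5 libraries (2.62% ± 2.30), the difference was 23.8 percentage points (same exact permutation test, n = 6, p = 0.0312, adjusted p = 0.0781). The smallest p that 6 pairs allow is 0.0312. With the numbers of libraries in the 5 tests, no adjusted p could be below 0.0781. Neither difference could therefore pass a threshold of 0.05, and the adjusted values do not decide the question.

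This overlap was found at the regions with an IgG peak. In the same order of libraries, 74.7%, 41.5%, 37.6%, 91.7%, 36.7% and 36.2% of the 229 IgG-overlapped regions had an H3K27me3 peak, and 1.68%, 0.420%, 0.840%, 0.840%, 0.420% and 0% of the 238 others. At least 1 library had an H3K27me3 peak at 215 of the 229 (93.9%) and at 7 of the 238 (2.94%, interval 1.19% to 5.97%). The share was 2.20% of the proximal constitutive regions without an IgG peak. It was 4.34% of all constitutive regions, a set that includes the IgG-overlapped members. With every IgG-overlapped region removed from both classes, the members exceeded the proximal constitutive regions by 0.184 percentage points (0.700% against 0.516%, two-sided exact paired permutation test, n = 6, p = 0.562). Vehicle replicate 1 and OA replicate 1 had the highest shares of IgG-overlapped regions with H3K27me3. The part of background cutting in the H3K27me3 and H3K4me3 calls at these regions was not tested.

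**Figure D4:**
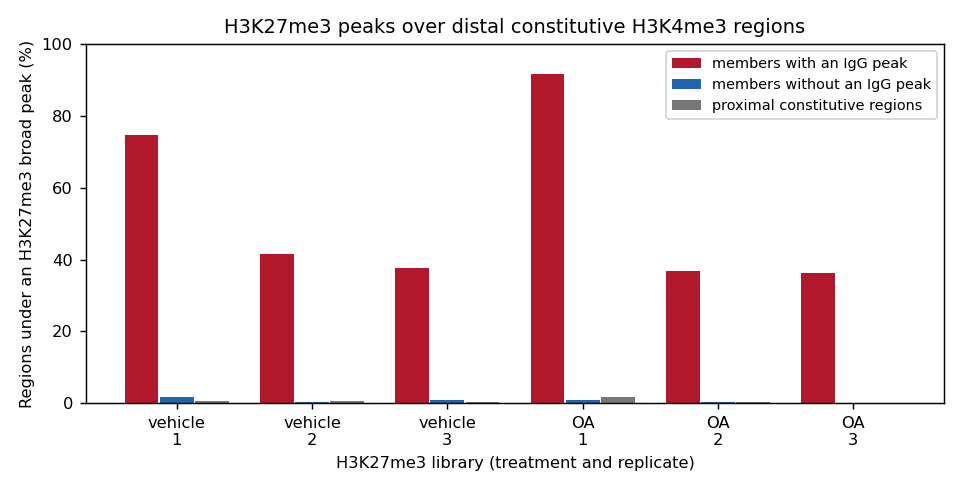
Share of regions under an H3K27me3 broad peak (%, bars) in each of the 6 H3K27me3 libraries. Members with an IgG peak (red) are at 36.2% to 91.7%, whereas members without an IgG peak (blue) and proximal constitutive regions (grey) stay at or below 1.68%.

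The vehicle and OA libraries were then compared over the 467 regions. The vehicle replicates 1, 2 and 3 had peaks over 356, 345 and 277 kb of the members, while the OA replicates had 326, 348 and 379 kb. The groups overlapped, with a mean of 326 ± 42.7 kb for vehicle against 351 ± 26.8 kb for OA (SD, n = 3 each). The members' median percentile came to 51.0, 37.4 and 56.1 for the vehicle libraries against 64.3, 41.3 and 46.8 for the OA libraries, a difference of 2.65. The tests of covered length and percentile are not given, since both values come from the calls that chose the members. They still count among the 5 tests that were adjusted together. Removing OA replicate 1 turned the percentile difference to -4.26, and removing vehicle replicate 2 turned it to -2.69. The vehicle libraries had an H3K27me3 peak at 25.6% ± 10.3 of members and the OA libraries at 27.1% ± 15.8 (SD, n = 3 each, two-sided exact permutation test, p = 1.00, adjusted p = 1.00). With 3 libraries against 3, the smallest possible p is 0.1.

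All 3 OA percentiles were above all 3 vehicle percentiles at 32 of the 467 regions (6.85%), against 9.38% of all 11071 constitutive regions, and below them at 8 (1.71%), against 7.10%. None of these 40 regions had an IgG peak. Of the 238 members without an IgG peak, 32 (13.4%, interval 9.38% to 18.4%) were thus higher in OA and 8 (3.36%, interval 1.46% to 6.52%) lower. Without vehicle replicate 1, vehicle replicate 3, OA replicate 1 or OA replicate 2, the first count became 65, 63, 68 and 58, and without vehicle replicate 2, vehicle replicate 3, OA replicate 1 or OA replicate 3 the second became 32, 21, 40 and 39. Membership also changed, to between 471 and 621 regions, and 2 libraries against 3 have fewer values to overlap. Over all constitutive regions the shares under these omissions were 22.3%, 12.6%, 17.2% and 16.5% higher in OA, beside 13.8%, 10.1%, 13.2% and 11.9% of members, and 10.8%, 11.3%, 9.98% and 14.1% lower, beside 6.29%, 3.38%, 7.74% and 7.94% of members.

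The widest separation was at the U2 region in CCDC200 (chr17:43245818-43246760), where the percentiles were 63.3, 30.0 and 24.8 in vehicle against 99.4, 86.5 and 99.9 in OA. The untreated libraries stood at 88.7 and 96.1 there, close to OA and above vehicle, and a U2 gene is the template of the spliceosomal U2 snRNA. The words of this window had a median of 10 copies in the genome. An H3K27me3 peak was called at this region in 2 libraries. The other member of its cluster, at chr17:43245818-43252445, had an IgG peak. The region near PTPN18, a tyrosine phosphatase gene, followed with 48.9, 33.9 and 25.5 in vehicle and 84.3, 69.5 and 94.1 in OA, and here the untreated libraries were at 13.7 and 39.8. The region near ACBD3 came next, with 57.4, 64.3 and 54.0 in vehicle, 88.1, 93.0 and 99 in OA and 35.3 and 41.5 in the untreated libraries.

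In the other direction, the region beside the tryptophan tRNA gene TRW-CCA2-1 inside SLC47A1 had percentiles of 49.6, 59.2 and 74.9 in vehicle but 35.0, 42.6 and 43.7 in OA. A region on the short arm of chromosome 21 (chr21:6111185-6112915) had 40.8, 49.6 and 49.1 in vehicle but 26.8, 29.9 and 25.6 in OA. The region beside TRA-CGC3-1 and TRG-GCC2-2 near GPD2 had 41.2, 46.6 and 63.5 in vehicle but 39.0, 30.3 and 34.6 in OA. Of the 42 tRNA regions, 9 (21.4%) were higher and 2 (4.76%) were lower in OA by this criterion, against 9.38% and 7.10% of all constitutive regions, and the class as a whole had medians of 46.4, 43.5 and 50 in vehicle and 34.3, 49.4 and 54.3 in OA, which overlapped. No single region was tested, since 3 libraries against 3 cannot pass a correction over 467 regions.

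**Figure D5:**
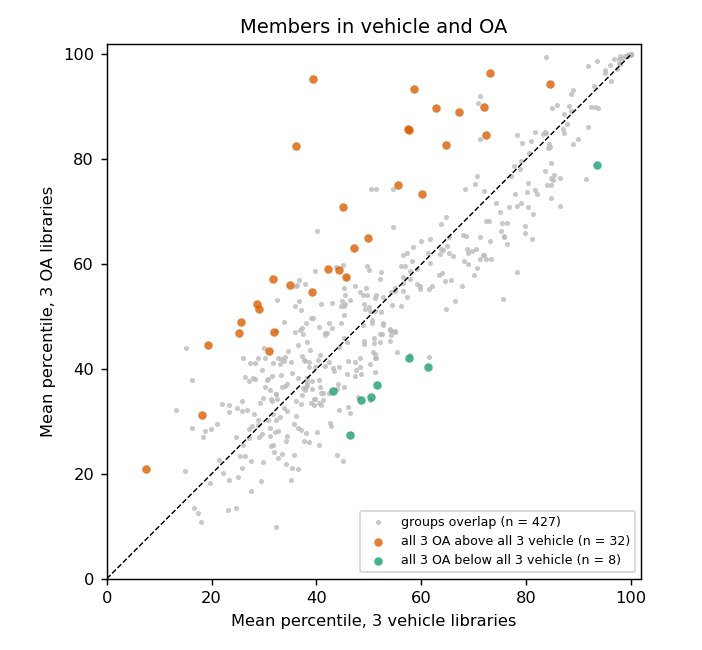
Mean percentile of each member in the 3 vehicle libraries (horizontal axis) and in the 3 OA libraries (vertical axis), with the dashed line of equality. The 32 orange points have all OA values above all vehicle values, the 8 green points the reverse, and at the other 427 members the groups overlap.

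The depth behind these values was modest at most regions without an IgG peak. The number of reads piled up at the strongest peak of a member, computed back from its deposited fold and p-value, had a median for these regions of 29.5, 40.5 and 14 in the vehicle replicates 1, 2 and 3, and of 20, 42 and 51.5 in the OA replicates. In the untreated libraries it was 15 and 14, over the members that were called there. At the regions without an IgG peak, vehicle replicate 3 had the fewest reads of the vehicle and OA libraries and OA replicate 3 the most. The covered length of the 238 regions was likewise lowest in vehicle replicate 3, with a median of 434 bp, and highest in OA replicate 3, with 940 bp. The order differed at the IgG-overlapped regions. Their medians, where computed, were 63, 44 and 70 reads in vehicle and 80, 42 and 39 in OA.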

How the data were processed

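The 16 CUT&RUN peak lists of MCF-10A cells were grouped by the submitters' labels. In the authors' methods, H3K4me3 peaks were narrow peaks of MACS2 2.2.7.1 and SICER2 is named for the H3K27me3 domains, although the deposited H3K27me3 lists have the MACS2 broad-peak layout, and the build was hg38. The fold enrichment of each peak and its −log10 p and −log10 q came from the authors' caller and were deposited per library, unscaled between libraries. The aligner, the handling of duplicate and multiply placed reads and any use of IgG as the caller's control are not given in the sources used here. Peak lists give no total depth, so sequencing depth per library is unknown.

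Peaks on the autosomes, X and Y were used, which left out 0.399% to 2.27% of the peaks of the mark lists and 13.5% and 17.3% of the IgG lists. Overlapping H3K4me3 peaks (1 bp or more) were joined into regions, and start sites came from all transcripts of protein-coding and lncRNA genes in GENCODE release 44. tRNA genes and further starts came from RefSeq (GRCh38.p14). The members and all lists were chosen with earlier results of these data known. The split by IgG, the classes by annotation, the B box, CENP-B and GGAAT searches, the word counts, the pileups and the 10 highest members without an IgG peak were added after seeing the data. Regions were named by the nearest protein-coding start and picked by fixed rules of rank, length, distance and separation of vehicle and OA. Comparisons used two-sided exact permutation tests over libraries with Benjamini-Hochberg adjustment over 5 tests, of which those of covered length and percentile are left out of the text because the members were chosen on these calls, and shares have exact (Clopper-Pearson) 95% intervals. Pileups were solved wherever the −log10 p did not exceed 250, to within 0.01, and 100% of these had a solution. The share of soft-masked bases was not computed, because the genome copy was in upper case. The sequence of 1 tRNA gene is not reported here. The steps were tested on simulated data. Python 3.11.15, numpy 2.4.6, scipy 1.17.1, numba 0.67.0 and matplotlib 3.10.9 were used.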

Additional observations from a re-analysis of the deposited data

Results flagged for a closer look

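Peaks on contigs outside the autosomes, X and Y were not used in the report. All 6 H3K4me3 libraries had a peak at 96 contig regions with no start site of the rule within 10 kb, on contigs that the annotation used here does not cover, and 23 of these had no peak in either IgG library. Signal at these regions was not compared with IgG beyond the presence of a peak. Of the 23 regions, 9 had a peak in both untreated H3K4me3 libraries.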

How the results depend on the processing

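Without the IgG-overlapped regions, 238 members remained, both untreated libraries had a peak at 21.8% of them, the H3K27me3 excess over proximal constitutive regions was 0.184 percentage points (exact paired permutation, p = 0.562), and the OA minus vehicle H3K27me3 share turned to -0.560 percentage points. With peaks required to cover 50% of a region, there were 231 members, 69.3% called in both untreated libraries and 68.8% overlapped by IgG, with 11 members higher and 2 lower in OA. Gene-level start sites gave 1127 members, 21.1% with an IgG peak, 94 higher and 56 lower in OA, because alternative transcript starts no longer excluded regions. Start sites of every biotype gave 65.2% called in both untreated libraries, 58.0% with an IgG peak, 17 higher and 5 lower. A limit of 5 kb gave 52.6%, 40.9% and 49 higher, and 20 kb gave 70.0%, 62.7% and 13 higher, in the same order. With the same number of peaks per library, 19 members were lower in OA. Other start sites or distance limits left the 11071 constitutive regions unchanged, of which 9.38% were higher and 7.10% lower in OA. For the settings of 50% coverage and of equal peak numbers, this share was not computed. The counts alone therefore do not show that members differed from other regions.

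When each replicate was left out in turn, the number of members was 471 to 621, the share called in both untreated libraries 46.9% to 61.0% and the share with an IgG peak 38.5% to 51.5%, with the lowest shares without vehicle replicate 3. Members higher in OA numbered 32 to 68 (32 with all libraries), or 6.52% to 13.8%, against 11.2% to 22.3% of all constitutive regions. Members lower numbered 11 to 40 (8 with all libraries), or 2.26% to 7.94%, against 9.98% to 14.1%. The H3K27me3 excess was 22.1 to 27.4 percentage points, with p = 0.0625, the smallest that an exact permutation over 5 pairs allows. The OA minus vehicle covered length was 11.5 kb without OA replicate 3, 13.5 kb without vehicle replicate 3, 37.7 and 39.3 kb without vehicle replicates 2 and 1 and 46.1 kb without OA replicate 1, against 24.7 kb. For the median percentile, the OA minus vehicle difference was -4.26 to 7.94 as H3K4me3 libraries were left out, lowest without OA replicate 1. It was -2.69 without vehicle replicate 2. For the H3K27me3 share, the H3K27me3 libraries were left out instead, with the 467 members kept. That difference was -7.64 to 7.42 percentage points, again lowest without OA replicate 1. It was -1.03 without vehicle replicate 2 and -1.89 without vehicle replicate 3. The cause was not tested.

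With the replicate number as a block, the OA minus vehicle differences stayed at 24.7 kb, 2.65 percentile points and 1.5 percentage points, the last with p = 1.00 (exact paired permutation), and no call changed. Whether the numbers pair the libraries is not known. The deviations of same-numbered libraries correlated at 0.186, 0.194 and -0.151 over 11071 regions, and those of differently numbered libraries at -0.334 to 0.155. Such correlations cannot show whether cultures were paired, because differences between single libraries also enter them. A q-value of at most 1e-05 lowered the H3K27me3 excess to 13.3 percentage points. This setting, the inclusion of contigs (3 of the values) and a 1000 bp window (3 of the values) changed no direction and no side of the threshold. The IgG share has no value where IgG regions were removed. Few reads at members without an IgG peak and the repeats at the others limit what a single region can show.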
